A study of Mus musculus with 3 samples.

Results

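The genes described here write, copy, remove or protect the methyl mark on cytosine in mouse embryonic stem (ES) cells during overexpression of the transcription factor Gata6. They are 10 genes: the DNA methyltransferases Dnmt1, Dnmt3a and Dnmt3b, the cofactor Dnmt3l, the maintenance factor Uhrf1, the dioxygenases Tet1, Tet2 and Tet3, and the imprint protectors Zfp57 and Trim28. Their members on the array were all probe sets that the platform annotation assigns to a single one of these genes, 23 of the 34945 probe sets with 1 annotated gene, and the 10 genes are among 18193 represented. ES cells are pluripotent cells derived from the early embryo, and the labels give 1 array each for day 0, named the control, day 1 and day 2 of Gata6 overexpression. Per the design text the cells were modified so that overexpression responds to dex, the inducer as the text names it. The sources used here do not give the ES cell line, the number of clones, the dose of dex or whether the day 0 cells carried the modification.

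Methyl groups are placed on cytosines, mostly in CpG dinucleotides, by DNA methyltransferases. Dnmt3a and Dnmt3b methylate unmethylated DNA (de novo methylation), and Dnmt3l, which has no catalytic activity of its own, binds and stimulates them. Dnmt1 copies the mark onto the new strand after replication, and Uhrf1 brings Dnmt1 to hemimethylated sites. The TET enzymes oxidise methylcytosine, which opens the way to loss of the mark. Zfp57 is a KRAB zinc finger protein that binds the methylated allele of imprint control regions and recruits Trim28 (also called KAP1), a corepressor that keeps these regions methylated through the divisions of the early embryo. In the mouse embryo, methylation is low in the blastocyst and is laid down again after implantation, to a lower level in the extraembryonic lineages, to which primitive endoderm belongs, than in the epiblast.

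The signal is the linear MAS5 intensity of a probe set. Arrays were brought to the same trimmed mean (scaling factors from 0.99974 to 1.00021), signals under a floor of 54.0 were set to the floor, and ratios between days are given on the log2 scale. Signals of different probe sets are not on 1 scale, and the levels of different genes were not compared. Signal was used across probe sets for the floor, bands of signal, the probe set chosen for each gene and the Tet3 background. Median signals were 84.2, 81.8 and 86.4 on days 0, 1 and 2. Each day has 1 array, so there is no replicate and no test, and a day cannot be told apart from its culture and array. The error used is the probe-set SD: how far the log2 ratios of paired probe sets for the same gene spread from each other, as an SD over the square root of 2. Pairs were grouped by the signal of the dimmer probe set, as a geometric mean over the 2 arrays of the ratio. The SD was 0.47 where this signal was under 200 and 0.32 where it was 200 to 1000. For signals of 1000 to 5000 it was 0.20, and above 5000 it was 0.13. It holds no spread between cultures. Gata6 itself read 110 on day 0, 5573 on day 1 and 6071 on day 2. Pou5f1, the pluripotency factor Oct4, read 4050, 1493 and 829. All 5 ES cell markers, Pou5f1, Nanog, Sox2, Esrrb and Zfp42, were at least 2-fold lower on both later days in their brightest probe sets. In theirs, 6 of 6 primitive endoderm markers, Gata6 included, were at least 2-fold higher. Of all genes compared, 6.58% on day 1 and 10.1% on day 2 were at least 2-fold lower than on day 0, and 6.00% and 11.0% were higher. Over all measured probe sets, the log2 ratio for day 2 against day 0 ran from 0.93 to 5.79 for Gata6. For Sox7 it ran from 0.14 to 5.16. The part of the ES cell marker course in the lower Tet1 and Zfp57 signals was not tested. Of 8 fibroblast feeder markers, Col1a1, Col3a1, Postn, Lum and Dcn did not exceed the floor on any array. The other 3 were Thy1 with 421, 75.4 and 50.5, Pdgfrb with 43.6, 93.2 and 41.7, and Twist1 with 7.0, 88.9 and 113. In such bulk samples, fewer cells of a type and less RNA per cell cannot be told apart.

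Promoter sequences of 6 of the 10 genes, chosen as examples of the courses described below, are shown first, so that they can be read beside the values. They are the 300 bases from 250 before to 50 after an annotated start, from RefSeq on GRCm38.p6. All 10 genes matched, with 19 such windows. In the windows of Dnmt3a, Dnmt3b and Tet1 the capitals mark each CpG, the dinucleotide on which these enzymes act. The first Dnmt3a window lies at chr12:3806730-3807029 and the internal one at chr12:3891494-3891793, 84.8 kb downstream, both on the plus strand. The Dnmt3b window is chr2:153649199-153649498 on the plus strand, and the Tet1 window is chr10:62887275-62887574 on the minus strand.
Dnmt3a upstream: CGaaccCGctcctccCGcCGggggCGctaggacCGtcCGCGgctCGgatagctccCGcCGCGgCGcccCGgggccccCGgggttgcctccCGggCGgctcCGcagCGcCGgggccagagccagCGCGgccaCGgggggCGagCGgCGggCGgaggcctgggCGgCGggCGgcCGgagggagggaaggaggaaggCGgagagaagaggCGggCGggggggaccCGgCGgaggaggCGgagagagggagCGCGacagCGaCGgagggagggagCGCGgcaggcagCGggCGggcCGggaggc
Dnmt3a internal: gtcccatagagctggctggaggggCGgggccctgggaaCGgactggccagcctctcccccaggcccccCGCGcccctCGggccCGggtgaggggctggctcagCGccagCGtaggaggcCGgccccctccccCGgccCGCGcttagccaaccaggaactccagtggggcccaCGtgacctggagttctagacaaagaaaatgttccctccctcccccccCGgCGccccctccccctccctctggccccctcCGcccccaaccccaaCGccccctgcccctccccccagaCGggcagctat
Dnmt3b: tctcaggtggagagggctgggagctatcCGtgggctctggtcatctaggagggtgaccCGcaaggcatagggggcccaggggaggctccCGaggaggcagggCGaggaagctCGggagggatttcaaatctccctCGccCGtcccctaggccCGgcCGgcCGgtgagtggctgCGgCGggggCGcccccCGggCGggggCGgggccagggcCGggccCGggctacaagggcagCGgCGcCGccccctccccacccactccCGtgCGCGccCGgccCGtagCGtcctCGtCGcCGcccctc
Tet1: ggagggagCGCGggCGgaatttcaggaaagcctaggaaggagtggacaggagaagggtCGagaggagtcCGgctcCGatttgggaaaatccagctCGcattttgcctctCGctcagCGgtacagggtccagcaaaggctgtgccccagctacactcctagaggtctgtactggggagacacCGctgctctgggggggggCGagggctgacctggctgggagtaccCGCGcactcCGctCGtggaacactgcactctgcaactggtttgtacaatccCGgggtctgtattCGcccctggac

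The upstream Dnmt3a window held 46 CpGs and the internal window 18, the Dnmt3b window 30 and the Tet1 window 17, against a median of 7 over all 32851 windows in the table. The Tet2 window held 57, more than in 99.8% of all windows, whereas the 3 Dnmt3l windows held 6, 4 and 3. In mouse ES cells a short Dnmt3a form starts from an internal promoter. Whether the internal window shown is that promoter, and which start was used on each day, was not measured by these arrays.

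Dnmt1 and Uhrf1, whose signals were lower on both later days, are shown next for letters bound by the E2F cell cycle factors. The letters TTTGGCGC, TTTCCCGC, TTTCGCGC and TTTGCCGC were searched on both strands and are in capitals. They were present in 2 of the 19 windows, those shown here, and in 2.26% of all windows. The Dnmt1 window, chr9:20952574-20952873 on the minus strand, is the most downstream of 3 and holds 2 matches. The Uhrf1 window, chr17:56304063-56304362 on the plus strand, is the downstream one of 2 and holds 1 match. In the Zfp57 window, chr17:37000913-37001212 on the plus strand, the capitals mark a match to the letters that GATA factors bind, GATAA or GATAG after an A or a T, searched on both strands.
Dnmt1: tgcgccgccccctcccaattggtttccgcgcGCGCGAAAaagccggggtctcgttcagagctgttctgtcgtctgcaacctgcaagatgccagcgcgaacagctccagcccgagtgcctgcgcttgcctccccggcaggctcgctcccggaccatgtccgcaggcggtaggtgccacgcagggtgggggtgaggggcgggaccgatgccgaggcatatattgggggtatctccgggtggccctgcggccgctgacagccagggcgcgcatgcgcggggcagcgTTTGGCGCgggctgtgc
Uhrf1: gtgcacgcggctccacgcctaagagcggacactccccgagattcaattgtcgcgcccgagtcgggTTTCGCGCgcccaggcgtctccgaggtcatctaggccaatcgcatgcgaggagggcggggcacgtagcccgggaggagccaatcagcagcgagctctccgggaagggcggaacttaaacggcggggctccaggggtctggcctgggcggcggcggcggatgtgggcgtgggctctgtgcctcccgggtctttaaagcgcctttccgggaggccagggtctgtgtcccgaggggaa
Zfp57: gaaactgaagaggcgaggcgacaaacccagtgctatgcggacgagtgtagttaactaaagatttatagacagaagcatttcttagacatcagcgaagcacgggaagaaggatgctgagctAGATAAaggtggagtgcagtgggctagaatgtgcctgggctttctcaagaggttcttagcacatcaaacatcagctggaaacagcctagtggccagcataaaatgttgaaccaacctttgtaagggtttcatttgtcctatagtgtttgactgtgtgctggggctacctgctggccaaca

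Each of the 3 Zfp57 windows held a GATA match, as did 1 Dnmt1 window and 29.8% of all windows. No GATA match was in the windows of the other 8 genes. The octamer ATGCAAAT was in 0 of the 19 member windows and in 1.74% of all windows. These are matches of letters and say nothing of binding.

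Of the 3 de novo methylation genes, Dnmt3a was at least 2-fold higher on day 1 than on both other days. Dnmt3b passed 2-fold only on day 1 against day 0, where it was higher, and Dnmt3l only on day 2 against day 1, where it was lower. The Dnmt3a probe set 1423066_at read 969 on day 0, 5334 on day 1 and 1094 on day 2. It stands for Dnmt3a because its mean signal was the highest of 5. The day 1 array was high, and the day 0 and day 2 arrays lay close together. The log2 ratio was 2.46 for day 1 against day 0 (5.50-fold higher), with a probe-set SD of 0.20, and 0.17 for day 2 against day 0. For day 2 against day 1 it was -2.29 (4.88-fold lower). Of all 13602 genes compared, 0.948% had a higher ratio on day 1 against day 0, and 0.126% of 13468 had a lower one on day 2 against day 1.

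The other Dnmt3a probe sets followed the same course. Probe set 1423064_at read 603, 4024 and 776 on days 0, 1 and 2. Probe set 1423063_at read 240, 1275 and 493, and 1423065_at read 194, 1187 and 291. The dimmest, 1460324_at, read 42.8, 378 and 129, so that its day 0 value was under the floor and its day 1 signal was at least 7.01-fold higher. Day 1 was the highest array for 5 of 5 probe sets, at 5.31-fold to at least 7.01-fold above day 0 and 2.59-fold to 5.19-fold above day 2. They differed in how far day 2 stood from day 0: the log2 ratio ran over the 5 probe sets from 0.17 to 1.26, with 1423063_at at 1.04 (2.05-fold higher) and 1460324_at at 1.26 (at least 2.39-fold higher). Which transcript form each probe set detects was not determined here.

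Dnmt3b, the other de novo enzyme, was also brighter on day 1. Its probe set 1449052_a_at read 6542 on day 0, 14835 on day 1 and 11157 on day 2. Both later days were above day 0, day 1 the more so. The log2 ratio was 1.18 for day 1 against day 0 (2.27-fold higher), with a probe-set SD of 0.13, and 0.77 for day 2 against day 0 (1.70-fold higher). The second probe set, 1418351_a_at, read 3968, 11734 and 5810.5, with log2 ratios of 1.56 and 0.55. The step down from day 1 to day 2 differed between them, at 1.33-fold lower for the first and 2.02-fold lower for the second. Of all genes compared, 4.59% had a higher day 1 against day 0 ratio than Dnmt3b.

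Dnmt3l, the cofactor of both enzymes, had a single probe set, whose ID (1425035_s_at) marks it as matching more than 1 transcript. It read 8275 on day 0, 10865 on day 1 and 4617 on day 2. Day 1 was the brightest array and day 2 the dimmest. The log2 ratio was 0.39 on day 1 against day 0 (1.31-fold higher) and -0.84 on day 2 against day 0 (1.79-fold lower), each with a probe-set SD of 0.13. From day 1 to day 2 it was 2.35-fold lower, and 2.04% of all genes had a lower ratio in that comparison.

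The 3 genes of the de novo group differed from each other in size. On day 1 against day 0, the log2 ratio of Dnmt3a exceeded that of Dnmt3b by 1.28, with a combined probe-set SD of 0.24, and that of Dnmt3l by 2.07. On day 2 against day 0, Dnmt3b exceeded Dnmt3l by 1.61, with a combined SD of 0.19, with Dnmt3b above and Dnmt3l below day 0. On day 2 against day 1, the Dnmt3a ratio minus the Dnmt3b ratio was -1.87, and minus the Dnmt3l ratio it was -1.05. These differences hold for the probe sets that stand for the genes. On day 2 against day 1 the Dnmt3a probe sets ran from -2.37 to -1.37. The second Dnmt3b probe set was at -1.01 and Dnmt3l at -1.24, so the size of these last differences depends on the probe set.

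**Figure D1:**
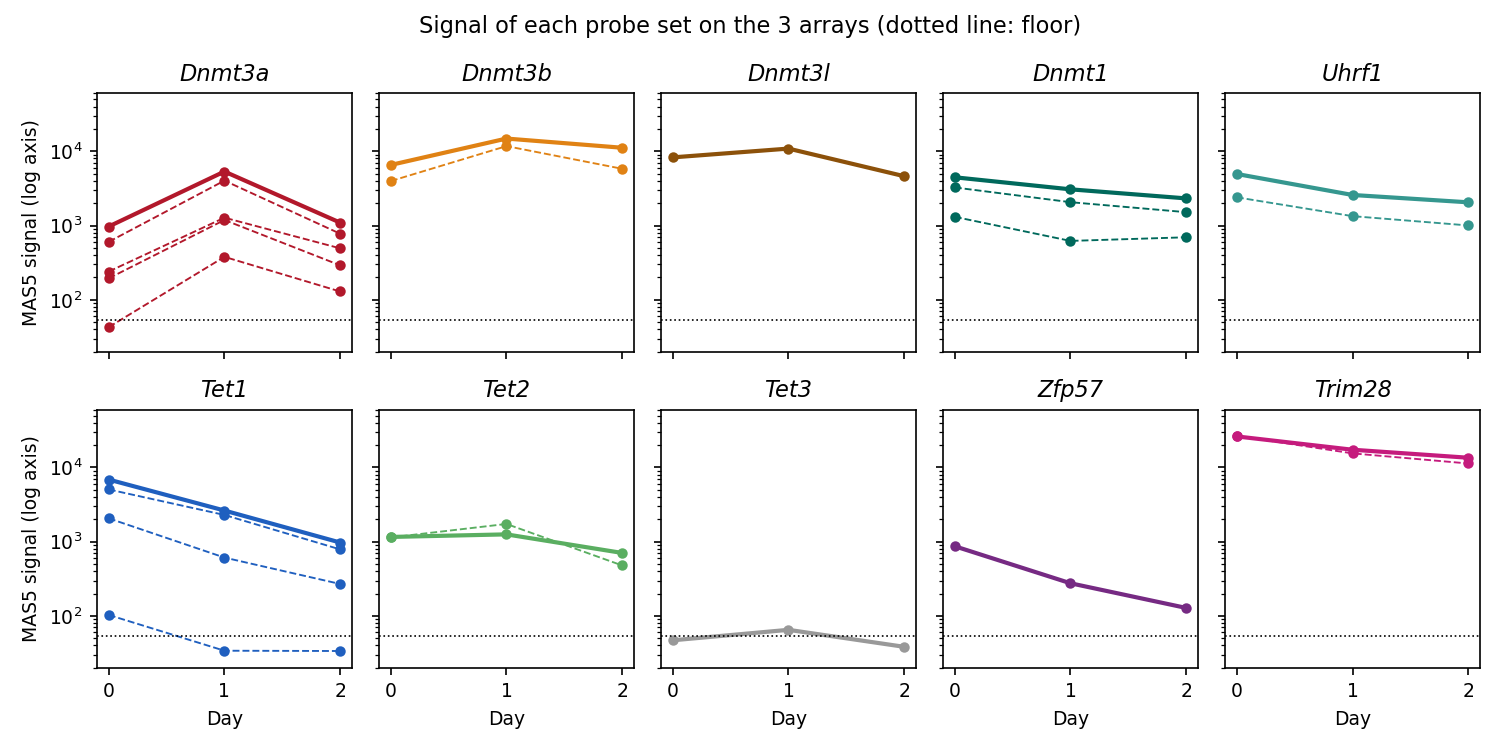
MAS5 signal (log axis) of each of the 23 probe sets on days 0, 1 and 2, in 1 panel per gene, with 1 array per day. Thick lines are the probe sets that stand for a gene, dashed lines the others, and the dotted line is the floor of 54.0. All Dnmt3a and Dnmt3b probe sets peak on day 1, the bright Tet1 probe sets and Zfp57 step down on each later day, and Tet3 stays near the floor.

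Maintenance genes were lower on both later days, by less than 2.5-fold. Uhrf1 read 4943 on day 0, 2579 on day 1 and 2054 on day 2 in probe set 1415810_at. Probe set 1415811_at read 2397, 1337 and 1002. Day 0 was the highest array and day 2 the lowest in both. The log2 ratio of the first was -0.94 on day 1 against day 0 (1.92-fold lower) and -1.27 on day 2 against day 0 (2.41-fold lower), with a probe-set SD of 0.20, and the second gave -0.84 and -1.26. The 2 Uhrf1 probe sets gave nearly the same day 2 ratio.

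Dnmt1, the maintenance methyltransferase, read 4460.5 on day 0, 3071 on day 1 and 2319 on day 2 in probe set 1422946_a_at. Its log2 ratio was -0.54 on day 1 against day 0 (1.45-fold lower) and -0.94 on day 2 against day 0 (1.92-fold lower), with a probe-set SD of 0.20. Probe set 1435122_x_at read 3254.5, 2061 and 1512.5, and its day 2 ratio of -1.11 (2.15-fold lower) lay just past the 2-fold threshold, where that of the first lay just inside it. The dimmer 1447877_x_at read 1308, 620.3 and 694, so it was lowest on day 1. Its log2 ratio was -1.08 on day 1 against day 0 and -0.91 on day 2 against day 0. All 3 Dnmt1 probe sets were thus below day 0 on both later days, by 1.45-fold to 2.15-fold. Between the probe sets that stand for the genes, the log2 ratio of Uhrf1 minus that of Dnmt1 was -0.40 on day 1 and -0.32 on day 2. The combined probe-set SD was 0.28 in both cases. On day 1 the dimmer Dnmt1 probe set, at -1.08, lay below both Uhrf1 probe sets. The day 1 ratio of Dnmt3a was 7.99-fold that of Dnmt1, and the log2 ratio of Dnmt3b exceeded that of Dnmt1 by 1.72.

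Of the TET enzymes, Tet1 was far lower and Tet2 moved less. Tet1 read 6870 on day 0, 2629 on day 1 and 975 on day 2 in probe set 1455425_at. Each day was well below the one before. The log2 ratio was -1.39 on day 1 against day 0 (2.61-fold lower), -1.43 on day 2 against day 1 (2.70-fold lower) and -2.82 on day 2 against day 0 (7.05-fold lower), with a probe-set SD of 0.20 in each. Of the 13865 genes compared on day 2 against day 0, 0.822% had a lower ratio. Probe set 1429448_s_at read 5055, 2292 and 788, and 1419896_at read 2063, 611 and 269.6. These 3 bright probe sets ran from 6.42-fold to 7.66-fold lower on day 2 against day 0. The fourth, 1419897_at, read 103, 34.0 and 33.7 and was under the floor on both later days, so it gives only a bound of at least 1.91-fold lower.

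Tet2 read 1159 on day 0, 1255 on day 1 and 706 on day 2 in probe set 1455300_at, with log2 ratios of 0.11 on day 1 and -0.72 on day 2 against day 0. The day 2 array was the low one. Probe set 1438781_at read 1142, 1734 and 479, which is 1.52-fold higher on day 1 and 2.38-fold lower on day 2 against day 0. From day 1 to day 2 it was 3.62-fold lower, while 1455300_at was 1.78-fold lower. The probe sets therefore had the same order of days and differed in the size of the last log2 ratio, -1.86 against -0.83. The Tet1 ratio minus the Tet2 ratio was -1.50 on day 1 and -2.10 on day 2, with combined probe-set SDs of 0.28 and 0.38. Tet3 had 1 probe set, 1439324_at, which read 47.0 on day 0, 65.0 on day 1 and 38.4 on day 2. All of these lie under 70.3, the 95th percentile of 75 probe sets for odorant and pheromone receptors, which serve here as a background, so Tet3 was not above background on any array and its probe set gives no difference between days.

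The imprint protectors were lower too, Zfp57 much more than Trim28. Zfp57 read 868 on day 0, 275.5 on day 1 and 128 on day 2 in its only probe set, 1450929_at. The arrays were in steps, with day 0 high and day 2 low. The log2 ratio was -1.66 on day 1 against day 0 (3.15-fold lower, probe-set SD 0.32) and -2.76 on day 2 against day 0 (6.77-fold lower, probe-set SD 0.32). On day 2 against day 1 it was -1.10 (2.15-fold lower), with a wider probe-set SD of 0.47 at these lower signals. Of all genes compared, 0.923% had a lower ratio on day 2 against day 0.

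Trim28 read 26175 on day 0, 17330 on day 1 and 13521 on day 2 in probe set 1456308_x_at, and 26684, 15481 and 11314 in 1415869_a_at. Day 0 was highest and day 2 lowest in both. The log2 ratio on day 2 against day 0 was -0.95 in the first (1.94-fold lower) and -1.24 in the second (2.36-fold lower), on either side of the 2-fold threshold, with a probe-set SD of 0.13. The first, which has the _x_at ending of probe sets open to cross-hybridisation, stands for the gene. Genes with a mean signal above 5000 had a median log2 ratio of -0.19 on day 2 against day 0 (838 genes), and with loess scaling the Trim28 ratio was -0.78. How much of the Trim28 ratio this trend makes up was not tested. The Zfp57 ratio minus the Trim28 ratio was -1.06 on day 1 and -1.81 on day 2, with a combined probe-set SD of 0.35.

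**Figure D2:**
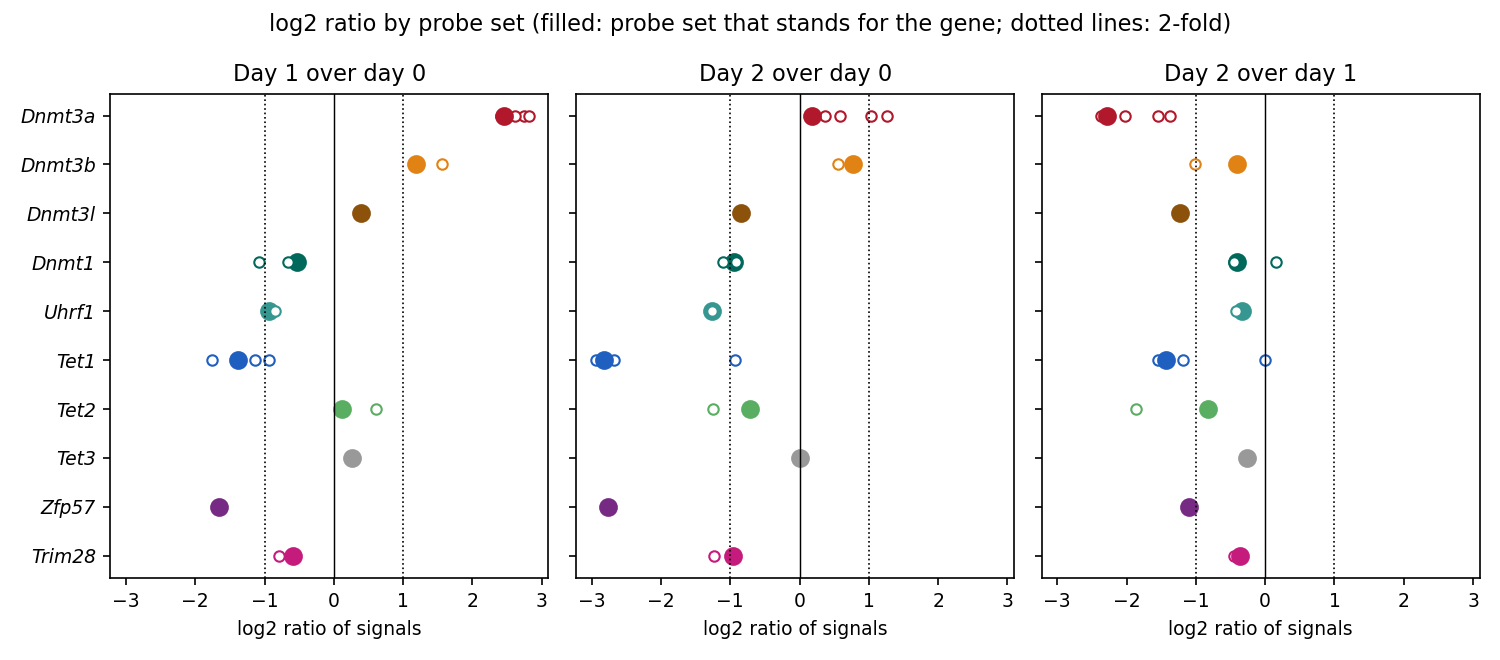
log2 ratio of signals (horizontal axis) for each probe set of the 10 genes, for day 1 over day 0, day 2 over day 0 and day 2 over day 1. Filled points are the probe sets that stand for a gene, open points the others, and dotted lines mark 2-fold. Dnmt3a lies at the right on day 1 over day 0 and at the left on day 2 over day 1, and Tet1 and Zfp57 lie left of the 2-fold line in all 3 panels for the filled points.

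Across the 10 genes, each represented by its brightest probe set, members lay on both sides of day 0 on day 1. On day 1 against day 0, Dnmt3a and Dnmt3b were at least 2-fold higher, where 6.00% of all genes compared were, and Tet1 and Zfp57 were at least 2-fold lower, where 6.58% were. The median log2 ratio of the 10 was -0.21, and that of all 13602 genes was -0.04. On day 2 against day 0, 0 of the 9 genes compared were at least 2-fold higher (11.0% of all genes) and 3 were at least 2-fold lower, Uhrf1, Tet1 and Zfp57 (10.1% of all genes). The median of the 9 was -0.94, with 7 of them below 0, and the median of all 13865 genes was -0.05, with 53.3% below 0. Nearest inside the 2-fold threshold were Trim28 at -0.95, Dnmt1 at -0.94 and Dnmt3l at -0.84, and nearest past it was Uhrf1 at -1.27. On day 2 against day 1, 0 of 10 were at least 2-fold higher (5.61% of all genes) and 4 were at least 2-fold lower, Dnmt3a, Dnmt3l, Tet1 and Zfp57 (3.67% of all genes). All 10 ratios were below 0 in this comparison, Tet3 under background among them, where 50.6% of all genes were. The comparisons share arrays, so their counts are not independent of each other.

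Patterns over the 3 days were counted as well. Dnmt3a alone of the 10 was at least 2-fold higher on day 1 than on both day 0 and day 2, a pattern shown by 98 of 14257 measured genes (0.687%). Tet1 and Zfp57 were at least 2-fold lower at both steps, which held for 93 measured genes (0.652%). Dnmt1, Uhrf1, Tet1, Zfp57 and Trim28 were lower at each step by any amount, as were 25.1% of measured genes.

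**Figure D3:**
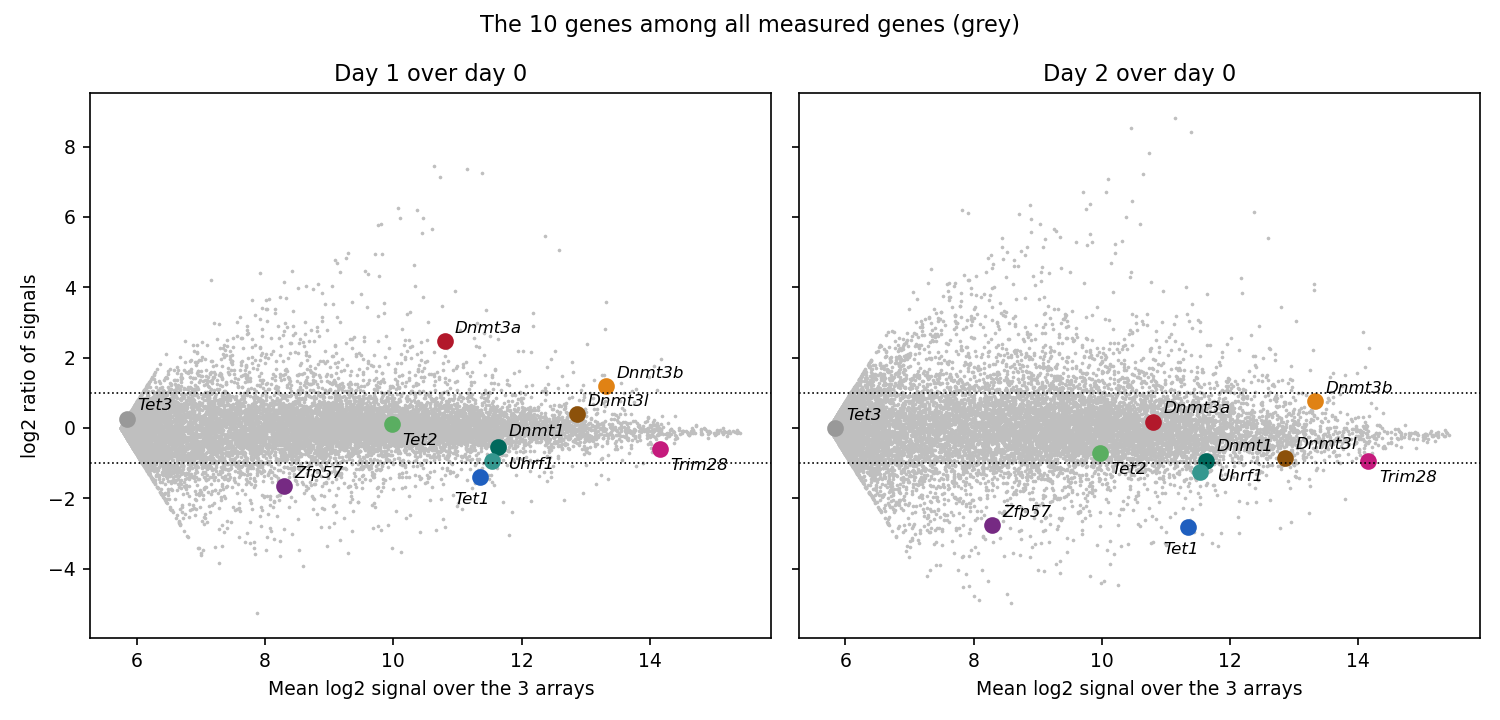
log2 ratio of signals for day 1 over day 0 (left) and day 2 over day 0 (right) against the mean log2 signal over the 3 arrays. Each grey point is a measured gene, coloured points are the 10 genes, and dotted lines mark 2-fold. Dnmt3a stands above most genes of similar signal on day 1 and within the cloud on day 2, while Tet1 and Zfp57 lie below it on day 2.

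Genes that work with these enzymes were compared through lists. All 12 enzyme partners and regulators were measured. At 2-fold, 4 of them were lower and 0 higher on day 1 against day 0, where 6.58% and 6.00% of all genes were, and their median was -0.57. The same comparison for day 2 gave 6 lower and 0 higher, where 10.1% and 11.0% of all genes were, and a median of -1.01. Prdm14, known in mouse ES cells to repress the Dnmt3 genes, read 994.5 on day 0, 104 on day 1 and 84.3 on day 2. This was 11.8-fold lower on day 2 against day 0. Cdca7, which activates the chromatin remodeller Hells, read 3055, 977.5 and 727 (4.20-fold lower on day 2), and Nanog, on the list as an ES cell regulator, read 14628, 3441 and 1842. The other lower members on day 2 were Gadd45a, Hells and Lig1, chosen for mention after their values were seen. Hells, needed for methylation of repeats, read 9487, 5367 and 3372. Uhrf2, the paralogue of Uhrf1, read 836, 1086 and 841, with a log2 ratio of 0.01 for day 2 against day 0, where that of Uhrf1 was -1.27. Dppa3, which binds Uhrf1, read 125, 104 and 183.5.

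Replication genes gave a comparison for Dnmt1 and Uhrf1, which are made mainly in dividing cells. Of 20 compared, 0 were higher and 0 lower by at least 2-fold on day 1 against day 0 (6.00% and 6.58% of all genes), with a median of -0.51. By day 2, 5 were below day 0 by this margin and 1 was above it (10.1% and 11.0% of all genes), and the median was -0.73. The probe sets that stand for the genes gave -0.54 and -0.94 for Dnmt1 and -0.94 and -1.27 for Uhrf1. Over all its probe sets, Dnmt1 ran from -1.08 to -0.54 on day 1 and from -1.11 to -0.91 on day 2. Uhrf1 ran from -0.94 to -0.84 and from -1.27 to -1.26. These ratios all lay below the medians of the list, and on day 1 the ranges of Dnmt1 and Uhrf1 overlapped. The day 1 Dnmt1 ratio of -0.54 was within its probe-set SD of 0.20 of the median. On day 2 the 5 list genes at least 2-fold lower all lay below the Dnmt1 ratio of -0.94, and Gins1 also below the Uhrf1 ratio of -1.27. Members with the widest day 2 ratios were Gins1 at -1.40 (probe sets from -1.40 to -0.39), a subunit of the replicative helicase, E2f1 at -1.23 (probe sets from -1.23 to -0.33), a transcription factor of S phase, and Ccne2 at 1.23, a cyclin. The part of replication in the Dnmt1 and Uhrf1 signals was not tested.

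A further list held genes of methyl-CpG binding families and zinc finger proteins, Ctcf and Kdm2b among them, and not all of these read methylated CpG. Of 10 compared, 0 differed 2-fold on day 1 against day 0, where 6.00% of all genes were higher and 6.58% lower. By day 2 the median was -0.25, and 1 was at least 2-fold lower than on day 0 and 0 higher, near the 10.1% and 11.0% of all genes. The lower gene was Mbd4, a glycosylase that binds methylated CpG, which read 907, 655 and 400 on the 3 days. The day 2 log2 ratios of its 3 probe sets ran from -1.18 to -0.83, on either side of 2-fold. Zbtb33 (Kaiso) had a day 2 log2 ratio of 0.72. Zbtb4 read 31.3, 60.7 and 102, with day 0 under the floor. Among 11 genes of base excision and oxidised cytosine processing the median was -0.66 for day 2 against day 0, and 3 were at least 2-fold lower and 0 higher, where 10.1% and 11.0% of all genes were. The uracil glycosylase Ung was 3.58-fold lower, the cytidine deaminase Apobec1 at least 6.90-fold lower, and Parp1 2.09-fold lower, with log2 ratios of its 4 probe sets between -1.72 and -0.76. Tdg, the glycosylase that excises oxidised methylcytosine, had no probe set with it as the sole annotated gene and was not analysed here.

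Trim28 and Zfp57 act with histone methyltransferases and heterochromatin proteins. The list compared here holds genes of these kinds and other silencing and zinc finger genes, such as Rif1, Zfp42 and Zfp809. Of its 18 genes, 1 was at least 2-fold above day 0 on day 1 and 1 below it, near the 6.00% and 6.58% of all genes. For day 2 the count was 1 above and 6 below, where 11.0% and 10.1% of all genes were, and the median was -0.51. Those below included the remodeller Smarcad1 (2.68-fold, with probe sets from -1.42 to -0.77 on the log2 scale), Rif1 (2.98-fold) and Zfp42 (6.35-fold), the last an ES cell marker also known as Rex1. The others below were Cbx1, with probe sets from -1.35 to 0.31, Morc3 (from -1.15 to -0.77) and Suv39h2 (from -1.20 to -0.81). Setdb1, the histone methyltransferase that Trim28 recruits, read 2666 on day 0, 2119 on day 1 and 1749 on day 2, within 2-fold. The listed gene above day 0, named after its value was seen, was Zfp809, with 416, 1016 and 1109. Zfp809 is a KRAB zinc finger protein that brings Trim28 to retroviral sequences. Zfp809 and Zfp57 thus had opposite signs on both days, with log2 ratios of 1.42 and -2.76 on day 2 against day 0.

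**Figure D4:**
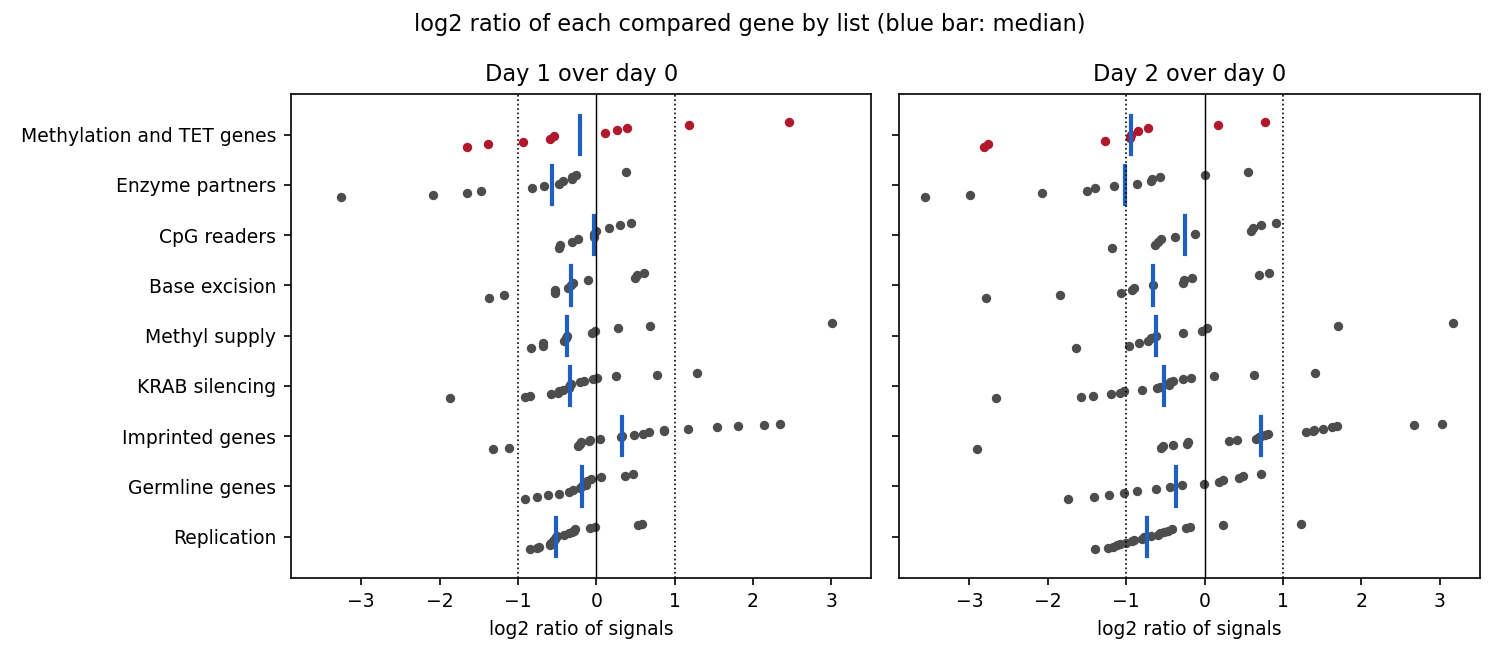
log2 ratio of signals for day 1 over day 0 (left) and day 2 over day 0 (right), by gene list. Each point is a gene above the floor on at least 1 of the 2 arrays, red for the 10 methylation and TET genes, blue bars are medians, and dotted lines mark 2-fold. Red points spread over both sides on day 1, and on day 2 most lie left of 0.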

How the data were processed

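RNA from mouse ES cells at day 0, day 1 and day 2 of Gata6 overexpression was measured on 1 Affymetrix array per day. The authors deposited 1 linear intensity per probe set and array, made with MAS5 per the submitters' processing notes, with no version named. MAS5 merges perfect-match and mismatch probes into 1 signal. Such scaling assumes that days have equal average signal. All 45101 probe sets, 64 of them controls, were read. Of the 45037 others, 34945 had 1 annotated gene, 932 several and 9160 none, and 34754 of the first matched a RefSeq gene identifier used for current symbols. Each array was scaled to a common 2% trimmed mean. The floor of 54.0 was the 40th percentile of all values. A gene was represented by its probe set of highest mean log2 signal. Of 18193 genes, 14257 exceeded the floor on some array. A gene counted as higher or lower at 2-fold if its brighter array exceeded the floor. A fold with the dimmer array at the floor is a lower bound. The 1 array per day limits precision, and no test was run.

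The members, the 8 gene lists (137 genes, 118 measured) and the rule for named genes were chosen with earlier results of these data known. Named genes were the 10 members, the 3 of each list with the widest day 2 against day 0 ratio, and Gata6, Pou5f1 and Nanog. Others are examples chosen after their values were seen. Alternatives were other floors (25th and 60th percentile), a pseudocount of 16, other scalings, other probe set choices and thresholds of 1.5-fold and 3-fold. Counting was tested on simulated data. Python 3.11.15, numpy 2.4.6, pandas 2.3.3, statsmodels 0.14.6 and matplotlib 3.10.9 were used.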

Additional observations from a re-analysis of the deposited data

How the results depend on the processing

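No called ratio of the 10 genes reversed its sign under the 8 alternatives of floor, scaling and probe set choice (7 for Dnmt3l, whose only probe set ends in _s_at). The ratios of Dnmt3a on day 1 against day 0 ran from 2.43 to 2.61 and those of Tet1 and Zfp57 on day 2 against day 0 from -2.82 to -2.34 and from -2.83 to -2.57. With means over probe sets, Trim28 passed 2-fold on day 2 against day 0 and Tet2 on day 2 against day 1, and Trim28 also did so without probe sets ending in _x_at or _s_at. Of 237 alternative ratios, 15 moved by more than the probe-set SD. A floor at the 60th percentile (146) left Zfp57 short of 2-fold on day 2 against day 1, at -0.92, and Tet1 as the only member lower by 2-fold at both steps. With the 1.5-fold threshold, 4 of the 10 were lower on day 1 against day 0, as were 2166 of all 13602 genes. For day 2 the count was 7 below day 0 and 1 (Dnmt3b) above it, where 3031 and 2803 of all 13865 genes were. With the 3-fold threshold, 1 was higher (Dnmt3a) and 1 lower (Zfp57) on day 1 against day 0, where 346 and 288 of 13602 genes were. On day 2 against day 1, 1 (Dnmt3a) was lower, as were 112 of 13468 genes.

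Counts over all genes were 816 higher and 895 lower on day 1 against day 0, 1532 and 1399 on day 2 against day 0, and 756 and 494 on day 2 against day 1. A floor at the 25th percentile (26.1) gave 1256 and 1618 in the first and 1336 and 912 in the third, and at the 60th 539 and 517, and 440 and 272. The 1.5-fold threshold gave 1815 and 2166, 2803 and 3031, and 2019 and 1625 in the 3 comparisons, and the 3-fold threshold 346 and 288, 720 and 540, and 228 and 112. No paired analysis was possible because each day has 1 array. Signals near the floor, such as those of Tet3, limit what can be read.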

Other observations

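Genes listed as imprinted were more often higher than lower at 2-fold. Zfp57 and Trim28 protect methylation at imprint control regions, and which of the listed genes depend on them was not determined here. Of 21 compared, 5 were at least 2-fold above day 0 on day 1 and 2 below it, where 6.00% and 6.58% of all genes were. For day 2 the count was 8 above and 1 below, where 11.0% and 10.1% of all genes were. The medians were 0.33 and 0.73. Peg3, a zinc finger protein expressed from the paternal allele, read 550.0 on day 0, 1605 on day 1 and 4502 on day 2 (8.18-fold higher on day 2 against day 0). Igf2, a growth factor, read 770, 2692 and 4916, but its probe sets had day 2 log2 ratios from 0.05 to 2.67. Ascl2, Grb10 and Gnas, also among the 8, had probe sets from 0 to 1.39, from 0.39 to 1.70 and from 0.66 to 1.62. Those of Ndn ran from 1.05 to 1.51 and those of Peg3 from 2.93 to 4.03, and Cdkn1c and Phlda2 had 1 each. Mest was the lower gene on day 2, with 2192, 878.5 and 294 (7.45-fold lower). Arrays of this kind do not separate the parental alleles, and methylation was not measured.

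Of 15 germline genes whose promoters are methylated in somatic cells, 0 differed 2-fold on day 1 against day 0, where 6.00% of all genes were higher and 6.58% lower. For day 2, 0 of 14 were above day 0 and 4 below, where 11.0% and 10.1% of all genes were, and the median was -0.37. Those below were Mael (3.34-fold), Stk31 (2.66-fold), Dazl (2.34-fold) and Hormad1. Mael read 1665, 1517 and 498 on the 3 days and Dazl read 279, 267 and 119, so their lower signal came between day 1 and day 2. Rhox5 read 11839, 10251 and 13470. Of 11 genes that supply methyl groups, 2 were higher and 1 lower on day 2 against day 0, near the 11.0% and 10.1% of all genes, and their median was -0.62. Bhmt, which remethylates homocysteine from betaine, read 357, 2867 and 3225 (9.03-fold higher on day 2 against day 0). Gnmt, which uses up S-adenosylmethionine, read 22.1, 86.8 and 175, at least 3.25-fold higher. Mthfd2, a mitochondrial folate enzyme, read 5393, 3368 and 1735 (3.11-fold lower).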
